A study of Mus musculus with 85 samples.

Results

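The 6 mature miRNAs described here are those known from white blood cells, read out in whole hearts: mmu-miR-142a-3p and mmu-miR-142a-5p (the 2 arms of 1 precursor), mmu-miR-223-3p, mmu-miR-150-5p, mmu-miR-146a-5p and mmu-miR-155-5p. They were chosen by name from the 1977 listed miRNAs, of which 548 had a count in any library. All 6 had counts and all 6 were among the 120 miRNAs with a mean of at least 2 counts per library, on which the tests were run. Hearts came from female mice of inbred strains of the Hybrid Mouse Diversity Panel, 16 weeks old and fed chow for 8 weeks, then a high-fat/high-sucrose diet for 8 more, with 1 library per heart and 85 libraries. All libraries shared this diet, sex and age, so there was no control group. The strain of each heart was not used here. Library numbers are those in the sample names.

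miRNAs are short RNAs that guide Argonaute proteins to partly complementary messenger RNAs, mostly through bases 2 to 8 (the seed), and lower the output of those messages. miR-142 is made in nearly all blood-forming lineages and is taken as a marker of leukocytes in solid tissue. miR-223 is a miRNA of neutrophils and monocytes, and miR-150 of mature lymphocytes. miR-146a and miR-155 are both induced by inflammatory signalling, where miR-146a damps the Toll-like receptor adaptors IRAK1 and TRAF6 and miR-155 promotes the response of activated macrophages and lymphocytes. In a heart, such miRNAs can come from resident macrophages, from infiltrating cells and from blood left in the vessels. In bulk tissue, fewer cells of a type and less RNA per cell cannot be told apart.

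The mature sequences below, from RefSeq on GRCm38.p6, are shown 5′ to 3′ with the seed in capitals, because a count of each row is a count of these molecules and because 2 neighbours (mmu-miR-146b-5p and the antisense mmu-miR-142b) are close to a member in sequence or place.
mmu-miR-142a-3p: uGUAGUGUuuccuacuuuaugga
mmu-miR-142a-5p: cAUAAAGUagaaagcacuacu
mmu-miR-223-3p: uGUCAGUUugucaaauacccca
mmu-miR-146a-5p: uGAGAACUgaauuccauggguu
mmu-miR-155-5p: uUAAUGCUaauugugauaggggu
mmu-miR-146b-5p: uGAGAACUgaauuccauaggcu
mmu-miR-142b: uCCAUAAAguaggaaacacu
No seed was shared between the members shown. mmu-miR-146b-5p has the seed of mmu-miR-146a-5p and the same base at 20 of 22 positions, but had only 78 counts in all, against 1309. The sequence of mmu-miR-142b is the reverse complement of bases 4 to 23 of mmu-miR-142a-3p.

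The precursor of miR-142a is shown next, with both arms in capitals, because the ratio of its arms is 1 of the results.
Mir142 hairpin: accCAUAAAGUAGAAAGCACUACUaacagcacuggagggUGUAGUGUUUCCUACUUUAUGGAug
It lies at chr11:87756864-87756927 on the plus strand of GRCm38, in an intron of the lincRNA gene Mir142hg in GENCODE M21, and the Mir142b gene lies over it on the minus strand. Mir155 (chr16:84714140-84714204, plus strand) lies inside an exon of its host lincRNA Mir155hg. Mir223 (chrX:96242817-96242926, plus strand) lies inside an exon of F630028O10Rik, a noncoding gene on its own strand. Mir150 (chr7:45121757-45121821, plus strand) and Mir146 (chr11:43374397-43374461, minus strand) overlapped no other annotated gene.

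The libraries were shallow. Totals ran from 1457 to 30202 counts, with a median of 12248, so that 3 counts, the limit a count of 0 allows, were 0.0245% of a library of median depth. Cardiac identity was plain in all 85 libraries, each of which had counts for the 4 cardiomyocyte miRNAs (mmu-miR-1a-3p, mmu-miR-133a-3p, mmu-miR-208a-3p and mmu-miR-499-5p) and for both arms of the endothelial mmu-miR-126a. Libraries fell into runs of consecutive numbers with unlike profiles, found in these same data and not given by the labels. With the 6 members and mmu-miR-142b left out, the first principal component of the other 113 tested miRNAs held 48.5% of the variance. It placed the 27 libraries numbered 1 to 10, 15 to 18, 20 to 21 and 49 to 59 at scores of 2.98 to 11.6 and the other 58 at -5.78 to 2.95. The highest of those 58 was library 14, the shallowest, and the next was at -0.764. What the runs are was not tested, and strain cannot be told apart from run here. Relations between miRNAs were therefore read within the 4 runs of at least 10 libraries (1 to 10, 22 to 48, 49 to 59 and 60 to 85), which hold 74 libraries.

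Over the pooled libraries, mmu-miR-142a-3p was by far the most abundant of the leukocyte miRNAs. Its counts ran from 4 to 699 with a median of 150, it had 14800 counts over all libraries, and it was the 17th miRNA of the heart in order of counts with 1.30% of them (95% Wilson interval 1.27% to 1.32%). The other members were 11.3 to 34.4 times less abundant. mmu-miR-146a-5p had 2 to 36 counts (median 14, 0.115% of all counts), and mmu-miR-223-3p had 1 to 45 (median 11, 0.0973%). mmu-miR-142a-5p had 0 to 49 (median 10, 0.0818%), mmu-miR-150-5p had 0 to 38 (median 6, 0.0612%), and mmu-miR-155-5p had 0 to 18 (median 5, 0.0377%). No neighbours in this order had overlapping intervals of their pooled shares, although the interval covers counting error only and the counts of the 5 less abundant members overlapped across libraries. The order was not the same in every run. In libraries 1 to 10, mmu-miR-146a-5p had 179 counts beside 170 of mmu-miR-142a-3p, which was the higher of the pair in 3 of the 10 libraries, and mmu-miR-150-5p (154) exceeded mmu-miR-223-3p (144). In libraries 49 to 59, mmu-miR-223-3p (294) exceeded mmu-miR-146a-5p (256).

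Presence was nearly general. mmu-miR-142a-3p, mmu-miR-223-3p and mmu-miR-146a-5p had a count in all 85 libraries, mmu-miR-150-5p in 84, and mmu-miR-142a-5p and mmu-miR-155-5p in 82 each. At most 3 counts, the floor used here, were found for mmu-miR-155-5p in 33 libraries, for mmu-miR-150-5p in 26 and for mmu-miR-142a-5p in 22, so single-library levels of these 3 were weakly measured. The passenger arms were close to absent: mmu-miR-223-5p had 11 counts in all, and mmu-miR-150-3p, mmu-miR-146a-3p and mmu-miR-155-3p had 0, which allows a share of at most 0.000263% of the pooled counts.

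Of the 11 further miRNAs listed for immune cells, only mmu-miR-342-3p (488 counts, 0 to 26 per library) and mmu-miR-181a-5p (334 counts, 0 to 13 per library) were abundant enough to be tested. The macrophage-enriched mmu-miR-511-3p had 6 counts and mmu-miR-511-5p had 1. Over all libraries the 6 members made up 1.69% of the counts, and 81.6% of that was miR-142a.

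The level of miR-142a differed more between runs than between hearts of a run, and the other members did not follow it. Median log2 CPM (TMM scaled, counts scaled to a common library size) of mmu-miR-142a-3p was 10.50 in libraries 1 to 10 (range 8.95 to 11.95), 14.04 in libraries 22 to 48 (13.27 to 15.23), 11.13 in libraries 49 to 59 (10.50 to 12.69) and 14.26 in libraries 60 to 85 (13.03 to 15.58). In counts, the medians were 16, 171, 33 and 249. The 53 libraries of runs 22 to 48 and 60 to 85 all lay above the 21 of runs 1 to 10 and 49 to 59, with means of 14.16 ± 0.55 and 10.82 ± 0.84 (SD). The difference of 3.34 on the log2 scale, or 10.1-fold, was the largest of the 120 tested miRNAs, whose median difference was -0.09. That rank holds for log2 CPM with a prior count of 2, which shrinks the differences of rare miRNAs more. In shares of the counts, mmu-miR-142a-3p held 0.170%, 1.69%, 0.304% and 1.73% in the 4 runs. The rare mmu-miR-144-3p held 0.00300%, 0.0451%, 0.00610% and 0.0567%, a larger relative step.

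mmu-miR-142a-5p was also higher in libraries 22 to 48 and 60 to 85, with medians of 8.26, 10.42, 8.40 and 10.22 in the 4 runs (in the order above). Its means were 4.01-fold apart between the same sets (n = 53 and 21), a fold that the prior count shrinks more than that of the 3p arm. Between these sets 12 of the 120 miRNAs (10%) did not overlap, 2 of them the arms of miR-142a. The runs were cut on the profiles of these same libraries, so this is a description with no test. In CPM without TMM scaling, where the median difference of all tested miRNAs was -0.48, both arms overlapped: for mmu-miR-142a-3p, 2 of the 53 libraries lay at or below library 59, the highest of the 21, and its difference was 2.91.

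**Figure D1:**
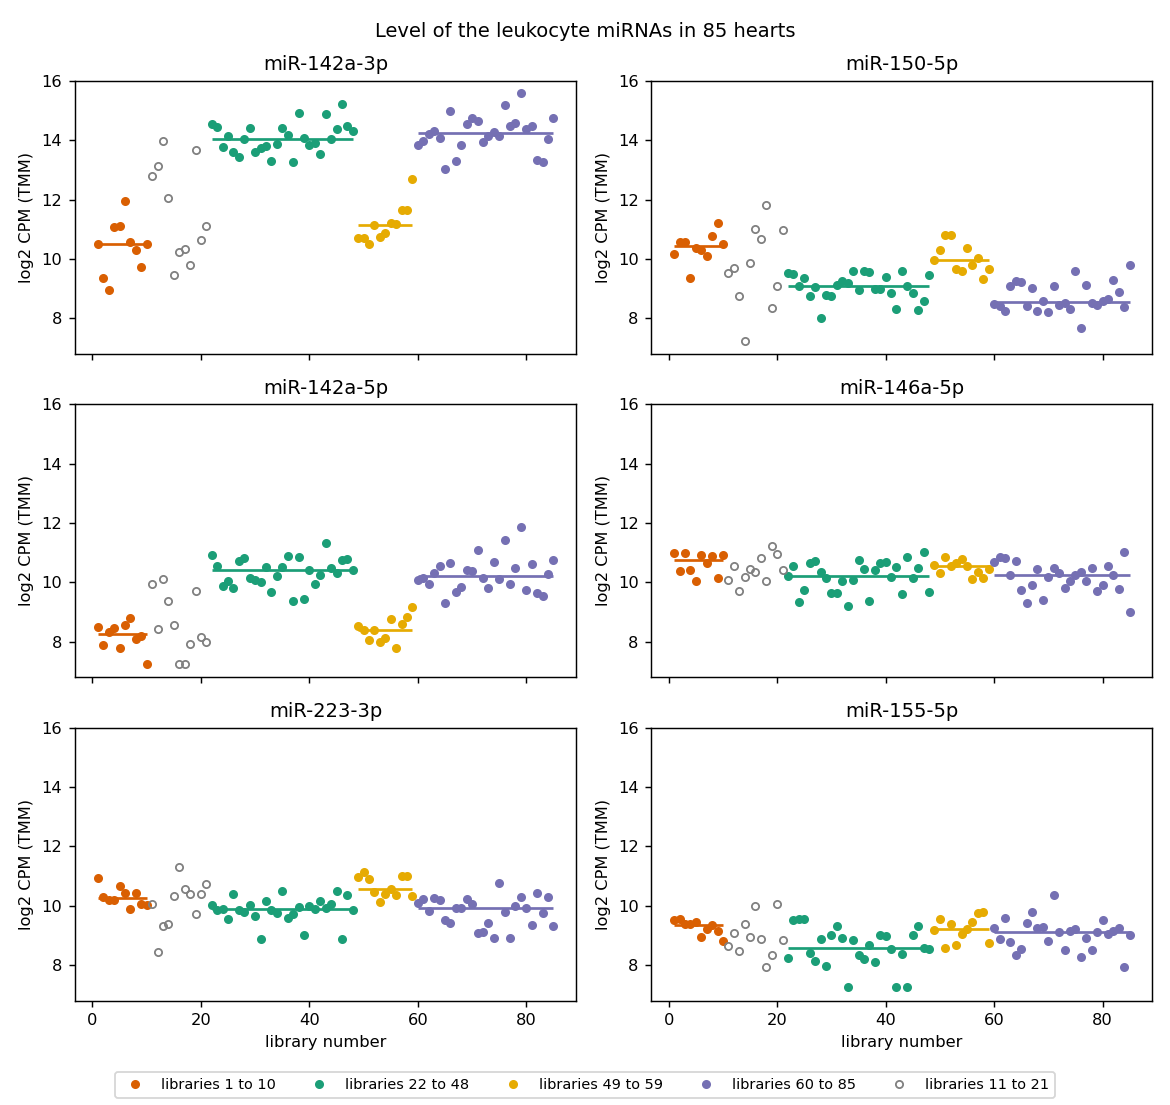
Level of each of the 6 leukocyte miRNAs (y axis, log2 CPM with TMM scaling) in the 85 hearts by library number (x axis). Each point is 1 heart, coloured by run, with a line at the median of each of the 4 longer runs. Both arms of miR-142a step up in libraries 22 to 48 and 60 to 85, while miR-150-5p steps down and miR-146a-5p stays between 9.02 and 11.2.

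mmu-miR-150-5p, the lymphocyte miRNA, was ordered the other way. Its median log2 CPM was 10.43 in libraries 1 to 10 (range 9.37 to 11.22), 9.08 in libraries 22 to 48 (8.00 to 9.61), 9.98 in libraries 49 to 59 (9.32 to 10.81) and 8.55 in libraries 60 to 85 (7.68 to 9.79). The mean was 1.32 lower in runs 22 to 48 and 60 to 85, the 3rd lowest difference of 120, with overlap. mmu-miR-223-3p was 0.66 lower (medians 10.25, 9.88, 10.55 and 9.91), mmu-miR-155-5p 0.44 lower and mmu-miR-146a-5p 0.38 lower, all with overlap. Under DESeq2 size factors and without TMM scaling the 6 directions were the same.

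Ratios of counts within a library are free of the scaling. For each count of mmu-miR-223-3p there were 1.18 counts of mmu-miR-142a-3p in libraries 1 to 10 and 1.70 in libraries 49 to 59, but 22.2 in libraries 22 to 48 and 25.7 in libraries 60 to 85. For each count of mmu-miR-150-5p the same run sums gave 1.10, 2.60, 45.7 and 71.9. mmu-miR-142a-3p exceeded mmu-miR-223-3p in all 53 libraries of runs 22 to 48 and 60 to 85, and in 5 of 10 and 8 of 11 of the other runs. The ratio of mmu-miR-223-3p to mmu-miR-146a-5p stayed between 0.742 and 1.15 in the 4 runs. miR-142a thus held 26.1% and 39.3% of the members' counts in libraries 1 to 10 and 49 to 59, against 88.3% and 89.4% in libraries 22 to 48 and 60 to 85.

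Over the library number as a whole, 3 of the 6 members changed (quasi-likelihood F test in edgeR, p adjusted over 120 miRNAs by Benjamini and Hochberg). mmu-miR-142a-3p rose by 0.29 log2 per 10 libraries (SE 0.063, adjusted p = 4.55e-05) and mmu-miR-142a-5p by 0.21 (SE 0.051, adjusted p = 0.000289), while mmu-miR-150-5p fell by 0.24 (SE 0.041, adjusted p = 7.40e-07). The slopes of mmu-miR-223-3p (-0.04, adjusted p = 0.196), mmu-miR-146a-5p (-0.04, adjusted p = 0.0722) and mmu-miR-155-5p (0.00, adjusted p = 0.927) did not pass. Calls were made for 69.2% of all tested miRNAs, so 3 of 6 is not a result about the leukocyte miRNAs. With the run as a factor, the same test called 0 of 120 miRNAs, and 12 had an unadjusted p under 0.05. mmu-miR-142a-3p was 1 of them, with a slope of 0.24 (SE 0.090, unadjusted p = 0.00850, adjusted p = 0.204). Without TMM scaling mmu-miR-223-3p and mmu-miR-146a-5p also fell, at adjusted p = 0.00595 and 0.000203 in the same edgeR test. There 90 of the 120 miRNAs were called (75%), 64 of them falling, and 5 of 6 members is near that background.

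Within runs, mmu-miR-142a-3p varied far beyond counting error, its 5p arm less far, and the 4 rarer members came closest to it. Chi-square per degree of freedom against shares fixed within each run was 34.5 for mmu-miR-142a-3p, the 3rd highest of 120 tested miRNAs, whose median was 1.70. It was 2.66 for mmu-miR-142a-5p, 1.61 for mmu-miR-146a-5p, 1.38 for mmu-miR-223-3p, 1.37 for mmu-miR-150-5p and 1.25 for mmu-miR-155-5p. This measure grows with the count, so it sets abundant miRNAs above rare ones. edgeR's coefficient of variation with counting error taken off, with the run as a factor, was 0.386 for mmu-miR-142a-3p (9th of 120). It was 0.325 for mmu-miR-142a-5p (15th), 0.288 for mmu-miR-150-5p (24th), 0.239 for mmu-miR-155-5p (42nd), 0.202 for mmu-miR-146a-5p (66th) and 0.200 for mmu-miR-223-3p (67th). Read as a share of variance beyond counting error, chi-square gives 97.1% for mmu-miR-142a-3p and 62.4% for mmu-miR-142a-5p. It gives 37.9% for mmu-miR-146a-5p, 27.6% for mmu-miR-223-3p, 26.8% for mmu-miR-150-5p and 19.96% for mmu-miR-155-5p. The SD between hearts of a run was 0.61 log2 CPM for mmu-miR-142a-3p and 0.43 to 0.54 for the others, so most of the spread of the 4 rarer miRNAs is the spread that their low counts give. Library depth was nearly unrelated to the levels, with r between -0.07 and 0.10 for the 6 members and the log2 total within runs.

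Whether the pan-leukocyte, myeloid and lymphocyte miRNAs rise and fall together between hearts was asked after the run mean was taken from each log2 CPM (n = 74). p-values are from 100000 two-sided permutations of libraries within runs, adjusted over all 7140 pairs of tested miRNAs, of which 250 (3.50%) passed. The 2 arms of miR-142a did move together, with r = 0.65 (95% interval 0.49 to 0.76, permutation p = 1e-05, the smallest they can give, adjusted p = 0.00117) and Spearman's rho = 0.70 (adjusted permutation p = 0.00246). Leaving out the 2 libraries whose 3p arm lay farthest from its median gave an r of 0.64. In single runs r was 0.18 (libraries 1 to 10, n = 10), 0.65 (22 to 48, n = 27), 0.74 (49 to 59, n = 11) and 0.86 (60 to 85, n = 26). Adjusted permutation p within each run was 0.884, 0.0922, 0.454 and 0.00595, so that the arms passed over all pairs in libraries 60 to 85 and in no other single run. The 5p arm had only 0 to 4 counts per library in the first of these, and there the interval of r reached from -0.51 to 0.73.

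miR-142a and the myeloid mmu-miR-223-3p were not found to move together. For mmu-miR-142a-3p with mmu-miR-223-3p, r was -0.04 (95% interval -0.27 to 0.19, permutation p = 0.722, adjusted p = 0.924) and rho was -0.01 (permutation p = 0.952). Without the 2 farthest libraries, r was -0.03. By run, r was 0.27, -0.05, -0.18 and -0.10, each interval holding 0. Library 76 is 1 extreme case: it had the most mmu-miR-142a-3p of all (699 counts in 20294) and the most mmu-miR-142a-5p (49). Its counts of mmu-miR-223-3p, mmu-miR-150-5p, mmu-miR-146a-5p and mmu-miR-155-5p were 14, 1, 22 and 3. The medians of these 4 in libraries 60 to 85 were 11, 4, 16.5 and 5.

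**Figure D2:**
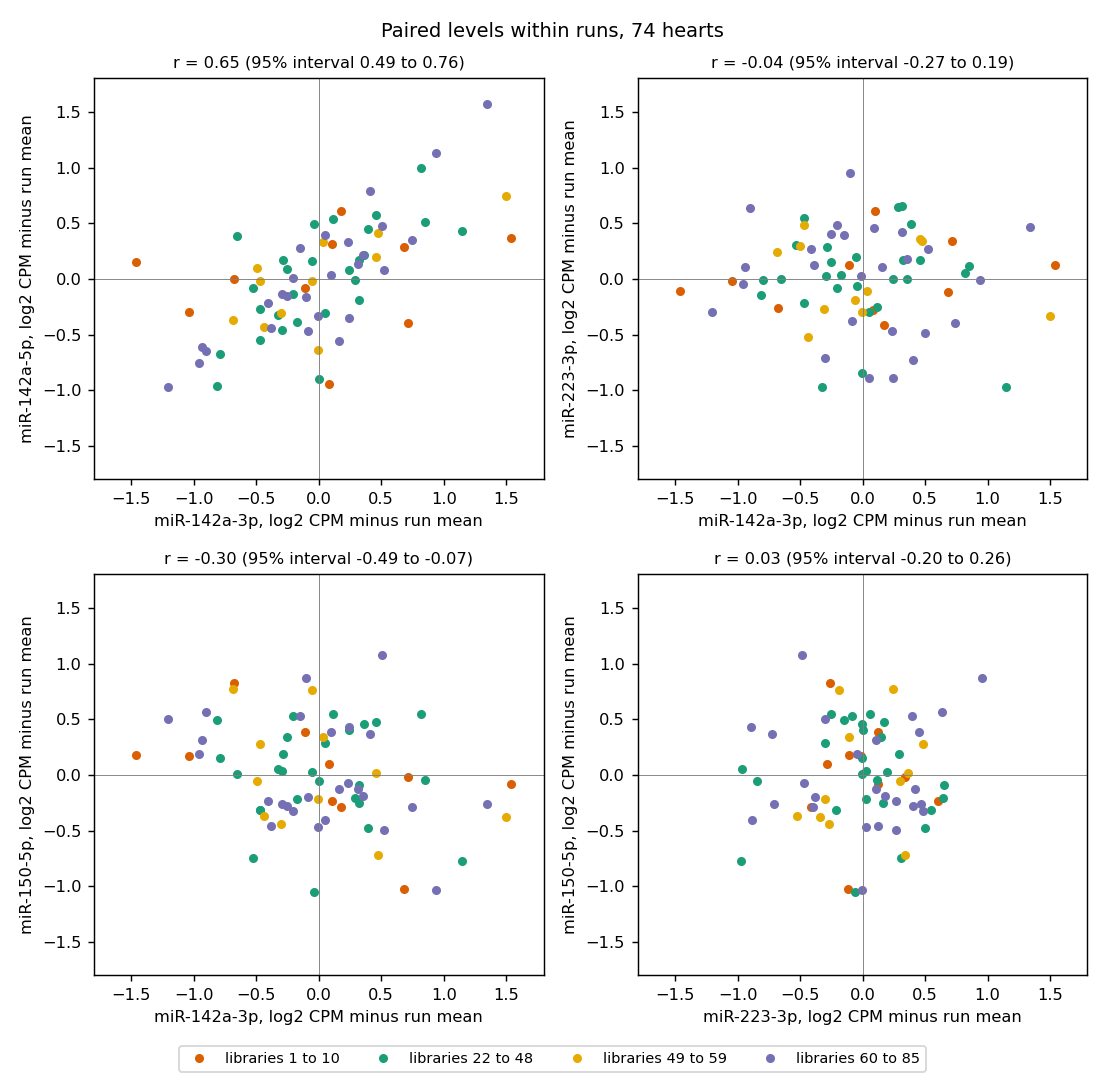
Levels of 4 pairs of miRNAs in 74 hearts, each axis in log2 CPM minus the mean of the run, 1 point per heart coloured by run. The 2 arms of miR-142a lie along a diagonal (r = 0.65), miR-142a-3p and miR-223-3p form a round cloud (r = -0.04), as do miR-223-3p and miR-150-5p (r = 0.03), and miR-142a-3p with miR-150-5p leans downward (r = -0.30).

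For mmu-miR-142a-3p with mmu-miR-150-5p, r was -0.30 (95% interval -0.49 to -0.07), with an unadjusted permutation p of 0.0130 that did not hold over all pairs (adjusted p = 0.171). Spearman's rho was -0.13 (permutation p = 0.340), and r without the 2 farthest libraries was -0.29. By run, r was -0.50, -0.06, -0.41 and -0.33, negative in all 4, with every interval holding 0. For mmu-miR-223-3p with mmu-miR-150-5p, r was 0.03 (95% interval -0.20 to 0.26, permutation p = 0.800, adjusted p = 0.945), rho was -0.07 (permutation p = 0.610), and r turned to -0.03 without the 2 farthest libraries.

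**Figure D3:**
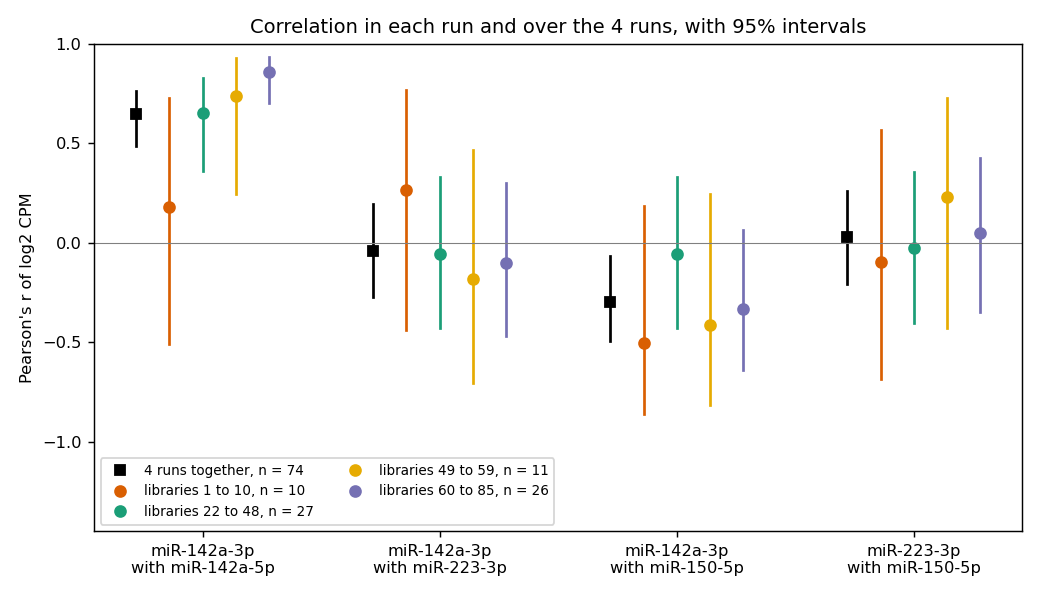
Pearson's r of log2 CPM (y axis) for 4 pairs of leukocyte miRNAs, in each run (coloured points) and over the 4 runs with run means removed (black squares), with 95% intervals from Fisher's transformation. For the arms of miR-142a the intervals of 3 runs lie above 0, and for the other 3 pairs every single-run interval holds 0.

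Counting error limits the size expected of these correlations. From the shares of variance above, levels that followed each other perfectly would give an r of about 0.78 for the 2 arms, 0.52 for mmu-miR-142a-3p with mmu-miR-223-3p, 0.51 for mmu-miR-142a-3p with mmu-miR-150-5p and 0.27 for mmu-miR-223-3p with mmu-miR-150-5p. The smallest |r| that passed the adjusted threshold over all pairs was 0.35. The 6 pairs among the 4 rarer members (mmu-miR-223-3p, mmu-miR-150-5p, mmu-miR-146a-5p and mmu-miR-155-5p) had such ceilings of 0.23 to 0.32, all below that limit. By these estimates even a perfect relation within these pairs would be expected to give an r under that limit at this depth. The ceilings are not strict bounds, and an observed r can exceed them. For mmu-miR-146a-5p with mmu-miR-155-5p the ceiling was 0.275, and r was -0.36 without the 2 farthest libraries (adjusted permutation p = 0.0863). The ceilings come from counts while r is of log2 CPM, and their own error was not computed. For mmu-miR-142a-3p with mmu-miR-223-3p, the upper bound of 0.19 lies below 0.52, but for this reason no conclusion is drawn from it.

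Among all 15 pairs of the 6 members, 1 passed (the arms of miR-142a), a share of 6.67% beside the 3.50% of all pairs. The median r over the 15 pairs was -0.01, beside 0.02 over all 7140 pairs, and 8 of the 15 were negative. The highest r apart from the arms was 0.21 (mmu-miR-223-3p with mmu-miR-146a-5p, adjusted permutation p = 0.427). mmu-miR-146a-5p and mmu-miR-155-5p, both induced by inflammatory signals, had an r of -0.23 (95% interval -0.44 to 0.00, adjusted permutation p = 0.373). Without the 2 farthest libraries it was -0.36 (adjusted permutation p = 0.0863). By run it was -0.30 (libraries 1 to 10), -0.19 (22 to 48), -0.77 (49 to 59, n = 11) and -0.20 (60 to 85). Adjusted permutation p within each run was 0.786, 0.850, 0.418 and 0.834. mmu-miR-150-5p with mmu-miR-146a-5p also had an r of -0.23 (unadjusted permutation p = 0.0463, adjusted p = 0.321).

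Of the 3 miRNAs outside the members that followed mmu-miR-142a-3p most closely within runs, 2 were erythroid. Its 3 largest r were with mmu-miR-451a (r = 0.65, 95% interval 0.50 to 0.77), mmu-miR-144-3p (r = 0.64, 0.48 to 0.76) and the antisense mmu-miR-142b (r = 0.57, 0.39 to 0.71), each at an adjusted permutation p of 0.00117. miR-451a and miR-144 are made from 1 transcript in the red cell lineage. The r with mmu-miR-451a was 0.47, 0.66, 0.57 and 0.80 in the 4 runs, and 0.64 without the 2 farthest libraries. In library 76, mmu-miR-451a had 106 counts, beside a median of 41 in its run (libraries 60 to 85).

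Of the 4 erythroid miRNAs listed, 2 passed with mmu-miR-142a-3p. The other 2, mmu-miR-486a-5p and mmu-miR-486b-5p, have the same counts in every library and gave an r of -0.13 (adjusted permutation p = 0.717). Summed and counting the miR-486 rows once, the erythroid list made up 0.165% to 0.783% of the counts in libraries 1 to 10, 0.174% to 0.992% in 22 to 48, 0.230% to 0.527% in 49 to 59 and 0.136% to 1.12% in 60 to 85. Mean levels were also set side by side for libraries 22 to 48 with 60 to 85 and libraries 1 to 10 with 49 to 59. That of mmu-miR-144-3p was 3.42-fold higher in the former (1.77 on the log2 scale, the 8th highest difference of 120). Its median count was 0 in libraries 1 to 10 and in libraries 49 to 59, so this fold and rank depend on the prior count. The mean of mmu-miR-451a was 2.01-fold higher in the former (the 20th), while that of mmu-miR-486a-5p was 0.47 lower on the log2 scale. The part of blood content in the levels of miR-142a was not tested. The r with mmu-miR-451a was -0.12 for mmu-miR-223-3p, -0.27 for mmu-miR-150-5p, -0.04 for mmu-miR-146a-5p and 0.21 for mmu-miR-155-5p, and none of these passed.

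**Figure D4:**
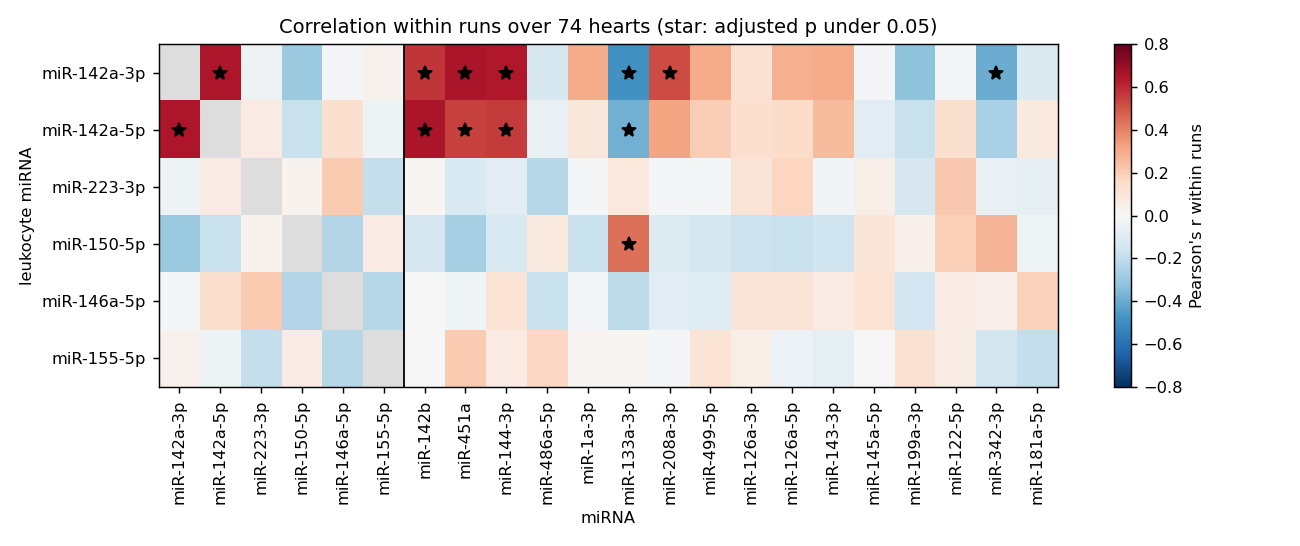
Pearson's r within runs over 74 hearts between the 6 leukocyte miRNAs (rows) and, left of the line, each other and, right of it, miR-142b and the listed erythroid, cardiomyocyte, endothelial, smooth muscle, fibroblast, liver and other immune miRNAs (columns). Stars mark an adjusted p under 0.05: they fall on the 2 arms of miR-142a and their partners miR-142b, miR-451a and miR-144-3p, on miR-133a-3p with 3 members, and on miR-208a-3p and miR-342-3p with miR-142a-3p.

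mmu-miR-142a-3p passed with 18 of its 119 partners (15.1%, beside 3.50% of all pairs), 12 with a positive r and 6 with a negative one. By Spearman's rho 7 passed, and none of the 6 negative ones did (adjusted permutation p for rho between 0.0647 and 0.338). With edgeR's filterByExpr, a stricter filter on low counts that kept 51 miRNAs, 317 of 1275 pairs (24.9%) passed. The 15.1% is therefore not read as an excess particular to this abundant miRNA. The cardiomyocyte list was split: of its 4 miRNAs, mmu-miR-208a-3p, encoded in a cardiac myosin gene, had an r of 0.52 (adjusted permutation p = 0.00117) and mmu-miR-133a-3p, a miRNA of heart and skeletal muscle, an r of -0.48 (adjusted permutation p = 0.00758), while mmu-miR-1a-3p (r = 0.29) and mmu-miR-499-5p (r = 0.30) did not pass. The summed level of the 4 was 18.5% to 29.2% of the counts over the 4 runs. The lowest r was with mmu-miR-125b-5p (-0.53, adjusted permutation p = 0.00117). mmu-miR-342-3p, a leukocyte miRNA from the list of other immune cell miRNAs, had an r of -0.40 with mmu-miR-142a-3p (adjusted permutation p = 0.0332). It missed the threshold without the 2 farthest libraries (adjusted permutation p = 0.0732), with biweight midcorrelation (0.0787) and with no filter on low counts (0.415), where mmu-miR-133a-3p missed it too (0.400). With all 8 runs (0.107) and in libraries 22 to 48 and 60 to 85 alone (0.205), mmu-miR-342-3p also missed it. In libraries 1 to 10 and 49 to 59 alone both missed it (0.394 for mmu-miR-342-3p and 0.537 for mmu-miR-133a-3p). mmu-miR-181a-5p, the other one tested, had an r of -0.11.

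mmu-miR-142a-5p passed with 8 of 119 partners (6.72%, beside 3.50% of all pairs). Its 3 largest r outside the members were with mmu-miR-142b (r = 0.66), mmu-miR-19a-3p (r = 0.60), a miRNA of the miR-17/92 cluster, and mmu-miR-144-3p (r = 0.56), each at an adjusted permutation p of 0.00117. mmu-miR-451a followed at 0.55.

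mmu-miR-150-5p passed with 4 of 119 partners (3.36%). This is near the 3.50% of all pairs, so the number is not a result about this miRNA. All 4 were positive: mmu-miR-125a-5p (r = 0.49, adjusted permutation p = 0.00201), mmu-let-7a-5p (r = 0.48, adjusted permutation p = 0.00380), mmu-miR-133a-3p (r = 0.44, adjusted permutation p = 0.00701) and mmu-miR-191-5p (r = 0.38, adjusted permutation p = 0.0315). In libraries 22 to 48 and 60 to 85 alone the first 3 had r of 0.36, 0.41 and 0.42 and did not pass. By Spearman's rho 1 of its pairs passed, that with mmu-miR-191-5p (rho = 0.44, adjusted permutation p = 0.04998). mmu-miR-125a-5p, mmu-miR-133a-3p and mmu-miR-191-5p each had a negative r with mmu-miR-142a-3p (-0.47, -0.48 and -0.36). The r of mmu-miR-150-5p with mmu-miR-342-3p, also made in lymphocytes, was 0.27 (adjusted permutation p = 0.225).

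mmu-miR-223-3p, mmu-miR-146a-5p and mmu-miR-155-5p each passed with 0 of 119 partners in the permutation test, with 1, 3 and 5 partners at an unadjusted p under 0.05. By Spearman's rho they also passed with 0. The 3 miRNAs closest to mmu-miR-223-3p were mmu-miR-192-5p (r = 0.26), mmu-miR-221-3p (r = 0.22) and mmu-miR-26b-5p (r = 0.22). Those closest to mmu-miR-146a-5p were mmu-miR-130a-3p (r = 0.24), mmu-miR-34a-5p (r = 0.21) and mmu-miR-181a-5p (r = 0.19). Those closest to mmu-miR-155-5p were mmu-miR-3065-5p (r = 0.31), mmu-miR-15b-5p (r = 0.30) and mmu-miR-451a (r = 0.21).

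The 3p arm made up nearly all of miR-142a. Over all libraries it had 14800 of 15734 counts, a share of 94.1% (95% Wilson interval 93.7% to 94.4%), or 15.8 counts of the 3p arm for each of the 5p arm. Over single libraries the share ran from 66.7% to 100% with a median of 94.0% (SD 4.87 percentage points, n = 85). The widest values came from libraries with few counts: the lowest share was in library 3, with 4 counts of the 3p arm and 2 of the 5p arm. In libraries 22 to 48 it ran from 87.6% to 96.9% and in libraries 60 to 85 from 92.7% to 96.9%.

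The arm share varied little beyond counting error between libraries. Chi-square per degree of freedom of the arm share over the 85 libraries was 1.16, the lowest among 8 precursors whose 2 arms each had 500 or more counts, where it reached 10.6 for mmu-miR-30e. This measure grows with the count, and mmu-miR-30e had 796 counts of its 3p arm and 41157 of its 5p arm. The rank therefore does not show that the share of miR-142a is the steadiest. The share was 94.2% (interval 93.8% to 94.6%) in the 53 libraries of runs 22 to 48 and 60 to 85 and 91.8% (89.5% to 93.6%) in the 21 of runs 1 to 10 and 49 to 59, and these intervals did not overlap. This gap of 2.42 percentage points was the 5th smallest of the 8 precursors, for which it ran from 0.43 to 5.09 in size. The mean level of the 3p arm differed 10.1-fold and that of the 5p arm 4.01-fold between the same sets. These 2 folds do not give the change of the arm ratio. They are of log2 CPM with a prior count of 2, which shrinks the fold of the rarer 5p arm more. In counts, the 3p and 5p arms had 13574 and 838 in the 53 libraries and 669 and 60 in the 21.

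**Figure D5:**
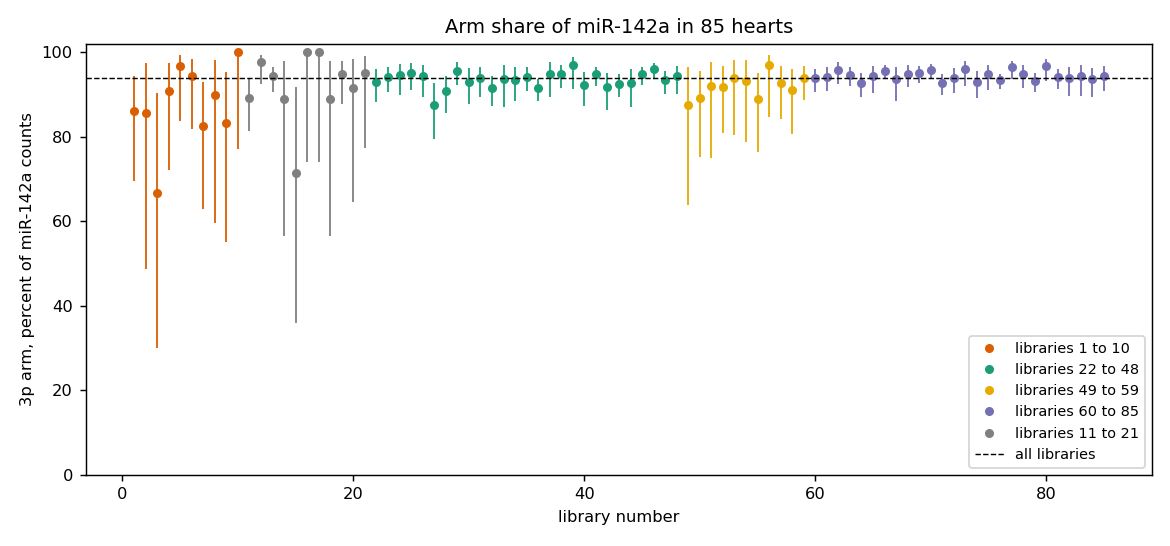
Share of the 3p arm in the counts of miR-142a (y axis, percent) by library number (x axis), with 95% Wilson intervals for each of the 85 hearts and the pooled share of 94.1% as a dashed line. The intervals are wide in libraries 1 to 21 and 49 to 59, where miR-142a had few counts, and the points of libraries 22 to 48 and 60 to 85 lie between 87.6% and 96.9%.

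The antisense mmu-miR-142b had 395 counts, beside 14800 for mmu-miR-142a-3p, and made up 2.60% of the 2 together (95% Wilson interval 2.36% to 2.86%). The share was 5.03% (2.67% to 9.28%) in libraries 1 to 10, 2.50% (2.12% to 2.93%) in 22 to 48, 3.48% (2.21% to 5.44%) in 49 to 59 and 2.57% (2.25% to 2.94%) in 60 to 85. Its level followed both arms of miR-142a (r = 0.57 and 0.66, above). The strand setting of the counting is not given in the sources used here, and without it reads of the 2 strands of this locus cannot be told apart.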

How the data were processed

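Total RNA was extracted from 85 hearts and made into small RNA libraries with a QIAseq kit. The authors mapped the reads with HISAT2 (version 2.0.6 in the submitters' processing notes, which also name mm10) and counted them with HTSeq (0.13.5). The authors deposited raw counts, 1 whole number for each mature miRNA and library, with no scaling. Trimming, the miRNA annotation, the strand setting and the use of molecular identifiers are not given in the sources used here, so intervals cover counting error only. Each count column matched 1 sample name.

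From the counts, TMM factors and log2 CPM (prior count 2) were computed in edgeR 4.0.16 (R 4.3.3) for the 120 miRNAs with a mean count of at least 2. The trend with library number used glmQLFit and glmQLFTest with Benjamini-Hochberg adjustment at 0.05. Correlations used run-centred log2 CPM, with 100000 permutations within runs in numpy 2.4.6, adjusted over 7140 pairs, and intervals from Fisher's transformation with the degrees of freedom of the run means taken off. Wilson intervals used scipy 1.17.1, and tables and figures used pandas 2.3.3 and matplotlib 3.10.9. The trend and correlation scripts were tested on simulated data. Only 95 of the 120 tested miRNAs (79.2%) had a mature sequence in the RefSeq table, so a check of GC content would be void and was not made.

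The members, lists, runs and tests were chosen with earlier results of these data known. Named miRNAs are the members, their other arms and mmu-miR-142b, the 3 miRNAs with the largest r with each member, and the lists of cell type markers and other immune cell miRNAs; the others named (mmu-miR-125b-5p, mmu-miR-191-5p, and mmu-miR-30e among the precursors) were picked with their values in view. The labels give 85 strains for the 85 hearts and the study's text fewer, so some hearts may share a strain. The permutations treat hearts of a run as independent, which hearts of 1 strain would not be. Their p-values give how often permuted libraries reached an |r| at least as large, and those of the trend judge a slope against the spread between these hearts.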

Additional observations from a re-analysis of the deposited data

How the results depend on the processing

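The correlation of the arms of miR-142a passed in the alternatives that tested both arms, except in libraries 1 to 10 and 49 to 59 alone, where r was 0.41, and in 3 of the 4 single runs. There mmu-miR-142a-3p with mmu-miR-223-3p turned to 0.054, 0 of 15 member pairs passed and 114 of all pairs did; with libraries 22 to 48 and 60 to 85 alone, 107 of all pairs passed. mmu-miR-223-3p with mmu-miR-150-5p turned to -0.026 without its 2 farthest libraries. With all 85 libraries pooled, ignoring the runs, 11 of 15 member pairs and 3813 of 7140 pairs passed, and r was -0.53 for mmu-miR-142a-3p with mmu-miR-223-3p, -0.76 for mmu-miR-142a-3p with mmu-miR-150-5p and 0.48 for mmu-miR-223-3p with mmu-miR-150-5p. Without TMM scaling 440 pairs passed, and with no filter on low counts 109. Under edgeR's filterByExpr, 2 members (mmu-miR-142a-3p and mmu-miR-146a-5p) remained, their 1 pair did not pass (0 member pairs), and the trend called 43 of 51 miRNAs. Of all 1275 pairs under that filter, 317 passed (24.9%). The trend called 5 members without TMM scaling (and 90 of 120 miRNAs), and 0 members and 0 miRNAs with the run as a factor. The slope of mmu-miR-155-5p turned to -0.058 without TMM scaling and to -0.20 with the run as a factor. Where fewer libraries or miRNAs were used, the tests rest on fewer values; otherwise the cause was not tested. Over all alternatives, those above included, 83 of 101 values that answer a comparison neither turned, moved nor crossed the threshold. Of 158 for single miRNAs and pairs, 21 lost the call, 3 gained it and 2 turned. Among the lost calls were those of mmu-miR-142a-3p with mmu-miR-451a, mmu-miR-144-3p and mmu-miR-142b in libraries 1 to 10 and 49 to 59 alone (adjusted permutation p = 0.272, 0.239 and 0.610). Depth limits the 4 rarer members most: leaving out library 14, the only one under 3062 counts, changed no call of a member's trend. It lies outside the runs used for the pairs. No paired analysis was possible because there is 1 group of hearts.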
